A study of Mus musculus with 15 samples.

Results

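The 31 genes described here make the T cell receptor, its co-receptors and signalling proteins, and the products by which cytotoxic T cells act. They were chosen by symbol, and each matched 1 row among the 46078 genes counted in mouse brain. The samples were 15 brain libraries of 3 groups with 5 mice in each. Wild-type (WT) mice were given PBS. APP-PS1 mice, which carry the Swedish mutant of amyloid precursor protein (APP), a chimera of mouse and human sequence, and the dE9 mutant of human presenilin 1 (PS1), were given PBS or an antibody against CD8a. The prion protein promoter directs both transgenes to neurons of the central nervous system. Mice were 12 months old and treatment lasted 4 weeks, with 10 injections of 0.8 mg of antibody each, or 100 µL of PBS. Both sexes were used, and the labels count 4 females among the WT mice and 2 in each APP-PS1 group. Tissue was taken after perfusion, and the sources used here do not give the brain region. The treated mice are compared with mice given PBS, so an effect of injected antibody as such cannot be told apart from one of binding CD8a.

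A T cell recognises a peptide held by an MHC molecule through a receptor of an alpha and a beta chain, which signals through the CD3 chains and the zeta chain CD247. On cytotoxic T cells the co-receptor CD8, built from CD8a and CD8b, binds MHC class I and brings in the kinase Lck, after which the kinase ZAP70 and the adaptor LAT pass the signal on. Killing relies on granules that hold perforin and granzymes. The healthy brain holds few T cells, which lie mostly in the meninges, the choroid plexus and around vessels, and CD8-positive T cells can enter the tissue near amyloid.

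All 31 genes together took 6699 counts, or 0.0015% of the counts of the 15 libraries. Library totals ranged from 17736524 to 36485809 counts assigned to genes. By these raw totals 3 counts equal 0.0822 to 0.169 CPM (counts at a common library total), a floor that covers counting error only. The CPM of genes and sums uses scaled totals, as described with the processing. A filter on low counts kept 14 of the 31 genes for testing, and the other 17 lay below it. Ttr, which choroid plexus cells express most strongly, exceeded 1000 CPM in 5 libraries (WT replicates 3 and 5, APP-PS1 PBS replicates 2 and 5 and anti-CD8a replicate 1). In 1 library, APP-PS1 PBS replicate 1, Xist and Y-linked genes went against the labelled sex. Brain tissue is seen in the list of 8 microglial genes, at 386 to 957 CPM in sum per library. By contrast, 8 genes of CD8, the receptor and CD3 (Cd8a, Cd8b1, Trac, Trbc1, Trbc2, Cd3d, Cd3e and Cd3g, here called the T cell core) summed to 1.03 to 2.55 CPM. Whether this sum follows the number of T cells was not tested. In such bulk tissue fewer T cells and less RNA per T cell cannot be told apart.

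The constant regions of the receptor's beta chain show how sequence limits these counts. Trbc1 (GRCm38 chromosome 6, 41538218 to 41539881, plus strand) and Trbc2 (chromosome 6, 41546730 to 41548352, plus strand) differ at 23 of the 521 coding bases that open their GENCODE transcripts, an identity of 95.6%. Positions are counted from the first base of the transcript. The first difference is at base 260 and the second at base 383, and 233 of the 447 stretches of 75 bases, the number of sequencing cycles, are the same in both genes (52.1%). A read from such a stretch has no unique place, and HTSeq sets reads without one aside. The 100 bases around the first difference, with the differing base in capitals, are shown because they stand for the part that is nearly shared:
Trbc1: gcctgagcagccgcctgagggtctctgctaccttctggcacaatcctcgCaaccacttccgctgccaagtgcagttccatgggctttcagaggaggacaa
Trbc2: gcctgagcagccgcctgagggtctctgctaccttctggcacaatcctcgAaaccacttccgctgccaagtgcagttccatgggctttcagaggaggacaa
The last 169 coding bases, from base 353 to 521, hold the other 22 differences, again in capitals, and are shown because the genes differ most there:
Trbc1: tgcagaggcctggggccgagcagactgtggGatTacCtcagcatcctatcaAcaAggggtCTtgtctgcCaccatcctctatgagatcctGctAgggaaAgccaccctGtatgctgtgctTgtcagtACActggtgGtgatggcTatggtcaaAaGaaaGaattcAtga
Trbc2: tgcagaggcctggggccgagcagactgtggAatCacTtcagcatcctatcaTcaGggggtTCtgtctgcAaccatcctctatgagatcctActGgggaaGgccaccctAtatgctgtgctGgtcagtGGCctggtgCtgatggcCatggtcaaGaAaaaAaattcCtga
Trbc1 had 11 counts over the 15 libraries and Trbc2 had 103, and both are reported as uncertain for this reason.

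No loss of the transcript of CD8a, the target of the antibody, was detectable in treated mice. Cd8a (chromosome 6, 71373427 to 71379173, plus strand) had 8, 6, 3, 3 and 13 counts in the WT libraries, 6, 11, 4, 17 and 4 in APP-PS1 mice given PBS, and 3, 14, 21, 12 and 3 in treated mice, in the order of replicates 1 to 5. The 3 groups overlap, and the treated group holds both the highest library (replicate 3, 0.707 CPM) and the lowest (replicate 5, 0.0824 CPM). Group levels were 0.21 ± 0.11 CPM in WT, 0.299 ± 0.15 in PBS-given APP-PS1 and 0.34 ± 0.259 in treated mice (SD, n = 5 each). For treated against PBS-given APP-PS1 mice, edgeR's quasi-likelihood test put the log2 fold change at 0.07 (SE 0.51) with an adjusted p of 0.964. Its approximate 95% interval uses the normal distribution and is not corrected for the number of genes. It runs from 0.526-fold to 2.1-fold, so losses down to 0.526 of the PBS level lie within it. With 5 mice per group such an interval is too narrow, so it does not bound the loss firmly. Against WT mice the log2 fold change was 0.69 (SE 0.56) in PBS-given and 0.76 (SE 0.53) in treated mice, with adjusted p values of 0.669 and 0.612 in edgeR. Without WT replicate 5 these became 1.44 and 1.47, without APP-PS1 PBS replicate 4 the first became 0.41, and without anti-CD8a replicate 3 the second became 0.30. WT replicate 5 is the only WT library labelled male, and the model holds the labelled sex. Cd8b1 (chromosome 6, 71322788 to 71337494), which encodes the partner chain CD8b, had 9, 13 and 14 counts in the 3 groups, and 2, 1, 1, 2 and 3, then 3, 6, 1, 3 and 0, then 0, 6, 1, 6 and 1 counts by library. Anti-CD8a replicates 2 and 4 had the most Cd8b1 counts of their group.

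**Figure D1:**
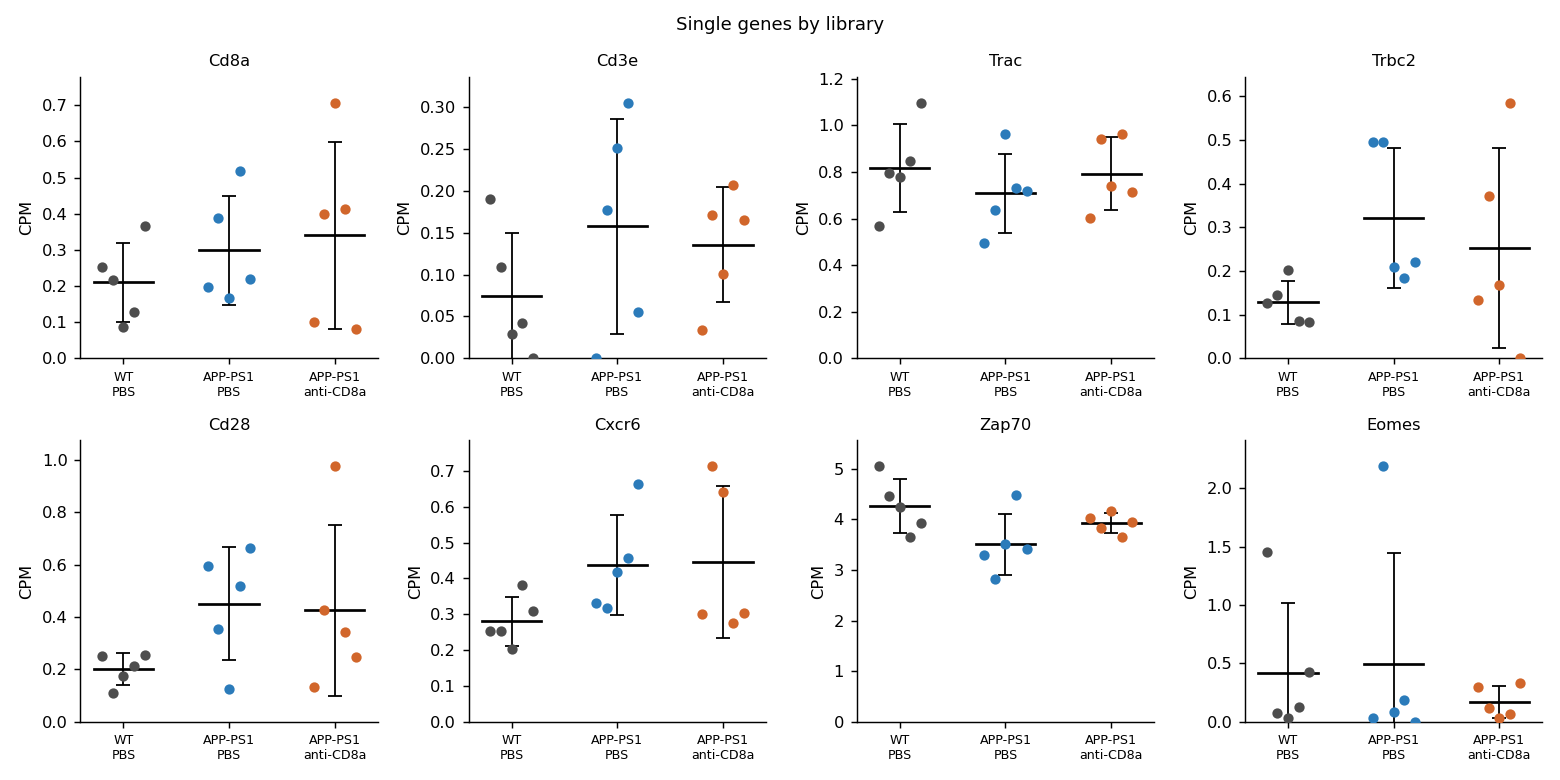
CPM of 8 genes in each library (points), with the group mean (horizontal line) and SD (error bar, not drawn below 0), for 5 mice per group. Cd8a in treated mice spans 0.0824 to 0.707 CPM, and Eomes is high in WT replicate 1 (1.45 CPM) and APP-PS1 PBS replicate 2 (2.19 CPM).

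The CD3 chains had few counts in every group. Cd3e (chromosome 9, 44998740 to 45009627, minus strand), an invariant chain of the complex, had 6, 3, 1, 1 and 0 counts in WT, 0, 5, 6, 10 and 1 in PBS-given APP-PS1 and 1, 6, 3, 6 and 6 in treated mice. Its sums were 11, 22 and 22 counts, and the libraries of the 3 groups overlap. Without a filter on low counts edgeR estimated a log2 fold change of 1.35 (SE 0.73) with an adjusted p of 0.703 for PBS-given APP-PS1 against WT mice, and of -0.24 (SE 0.62) with an adjusted p of 0.944 for treated against PBS-given mice. Cd3g and Cd3d, neighbours of Cd3e on chromosome 9 that encode the gamma and delta chains, had 13, 18 and 22 and 16, 9 and 10 counts per group. Trbc2 had 20 counts in WT, 44 in PBS-given APP-PS1 and 39 in treated mice. In APP-PS1 mice given PBS its libraries had 15, 14, 5, 6 and 4 counts against 4, 4, 7, 2 and 3 in WT mice (1.23 on the log2 scale with SE 0.62, adjusted p of 0.656 in edgeR without the filter). Treated mice had 4, 13, 5, 17 and 0 counts of Trbc2, the widest range of the 3 groups. Cd8b1, like Trbc2 and Cd3e, was below the filter, and edgeR without it put Cd8b1 at -0.10 (SE 0.71, adjusted p of 0.999) for treated against PBS-given mice.

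Trac, the constant region of the alpha chain (chromosome 14, 54220521 to 54224206, plus strand), had the most counts of the receptor's chains here. It had 18, 22, 27, 20 and 39 counts in WT, 15, 18, 23, 24 and 13 in PBS-given APP-PS1 and 18, 33, 22, 28 and 26 in treated mice. At 0.818 ± 0.189, 0.709 ± 0.17 and 0.792 ± 0.156 CPM (SD, n = 5 each) its groups overlap, and edgeR gave adjusted p values from 0.723 to 0.934 over the 3 comparisons. Per kilobase of exon Trac was at a mean of 0.827 RPKM (CPM per kilobase) over the 15 libraries, against 0.338 for Trbc2, 0.0778 for Cd8a and 0.03 for Cd3e. Reads from stretches that Trbc1 and Trbc2 share are set aside, so the value of Trbc2 can be too low. Trac alone makes up 346 of the 767 counts of the T cell core. Cd247 had 27, 28 and 42 counts in the 3 groups. Of its exons, 56.4% of the bases lie opposite exons of Pou2f1, a gene at 36.6 to 55.5 CPM, and no source used here states whether counting used strand.

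Summed over the T cell core, the libraries of the groups overlap. WT mice had 1.51 ± 0.222 CPM (233 counts), APP-PS1 mice given PBS 1.79 ± 0.392 CPM (244 counts) and treated mice 1.83 ± 0.735 CPM (290 counts; SD, n = 5 each). Treated replicates 2, 3 and 4 were at 2.37, 2.16 and 2.55 CPM. Treated replicates 1 and 5 were at 1.03 and 1.04 CPM, the 2 lowest values of the 15 libraries. PBS-given APP-PS1 libraries also spread, from 1.33 to 2.26 CPM, and WT libraries from 1.27 to 1.83 CPM. Whether treated libraries form 2 classes was not tested. Without Trac treated replicates 2, 3 and 4 had 1.43, 1.41 and 1.58 CPM, and replicates 1 and 5 had 0.434 and 0.33 CPM. PBS-given APP-PS1 libraries then ran from 0.607 to 1.62 CPM. Without Trac the group means were 0.688 ± 0.222 in WT, 1.08 ± 0.423 in PBS-given APP-PS1 and 1.04 ± 0.603 CPM in treated mice. The ratio of PBS-given APP-PS1 to WT means is thus 1.19 with Trac and 1.56 without it, and that of treated to PBS-given mice 1.02 and 0.964. Among the 5 Ttr-rich libraries the T cell core ranged from 1.03 to 2.26 CPM, and among the other 10 from 1.04 to 2.55 CPM. The sum over all 31 genes was flatter, at 14.6 ± 1.27, 14.6 ± 1.3 and 15.6 ± 1.62 CPM.

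Another part of the receptor was read after these values were known. The table lists 162 variable segments of the alpha and beta chains by symbol, of which 36 had a count. Their sum was 34 counts in WT, 51 in PBS-given APP-PS1 and 64 in treated mice, or 0.226 ± 0.0966, 0.375 ± 0.082 and 0.402 ± 0.101 CPM (SD, n = 5 each). The highest WT library (0.339 CPM) lies above the lowest of each other group (0.276 and 0.31 CPM). Here anti-CD8a replicates 1 and 5, low in the T cell core, had 0.401 and 0.357 CPM, in the middle of their group.

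**Figure D2:**
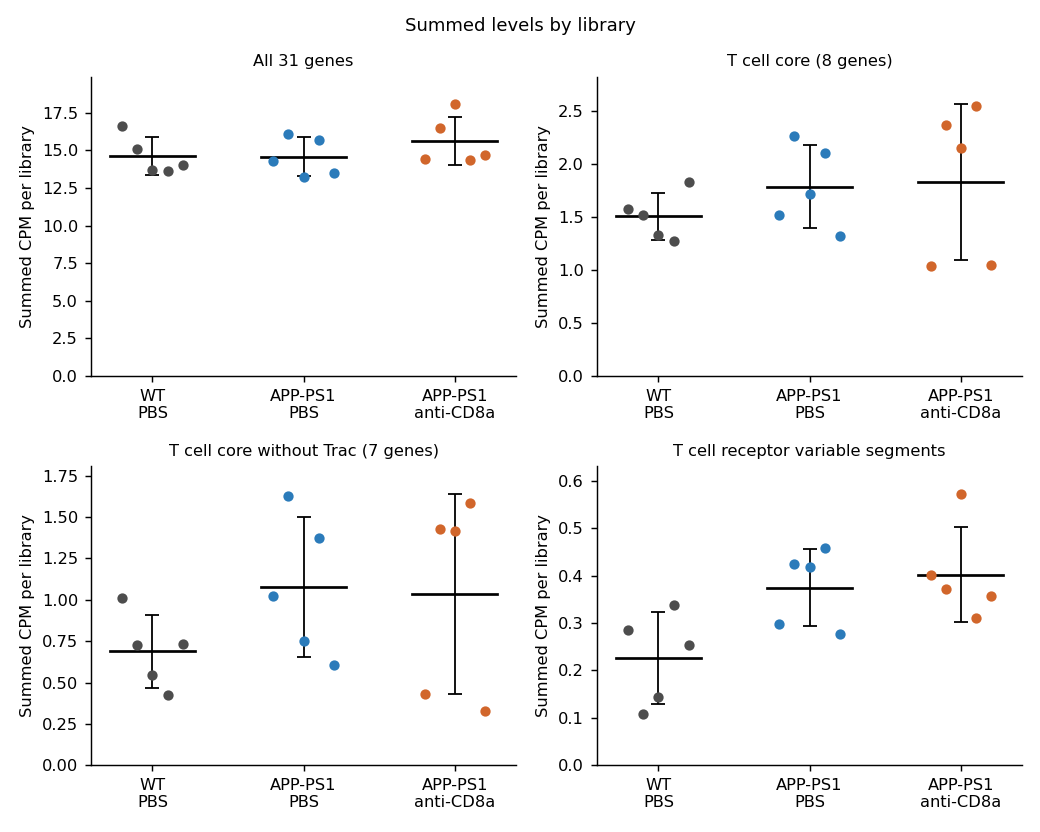
Summed CPM in each library (points) for all 31 genes, the T cell core of 8 genes, the same without Trac, and the variable segments of the receptor; lines are group means and bars SD, for 5 mice per group. In the T cell core treated libraries ranged from 1.03 to 2.55 CPM and PBS-given APP-PS1 libraries from 1.33 to 2.26 CPM. The sum over all 31 genes stays between 13.2 and 18.1 CPM in the 15 libraries.

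Of the signalling genes, Zap70 and Lck were among the 3 highest of the 31 per length, with Trac between them. Zap70, the kinase that binds the phosphorylated CD3 chains, took 26.2% of all their counts and was the only gene with a mean of at least 1 RPKM (1.3). Lck took 13.1% and was at 0.667 RPKM, and Lat, the adaptor phosphorylated by ZAP70, was at 0.302 RPKM. Zap70 had 160, 123, 147, 86 and 140 counts in WT, 100, 80, 84, 147 and 62 in PBS-given APP-PS1 and 121, 134, 124, 106 and 144 in treated mice. Scaled for depth these were 4.27 ± 0.538, 3.51 ± 0.605 and 3.93 ± 0.203 CPM, with overlapping groups. EdgeR put the log2 fold change of Zap70 at -0.22 (SE 0.12) with an adjusted p of 0.516 in PBS-given APP-PS1 against WT mice and at 0.16 (SE 0.12) with an adjusted p of 0.533 in treated against PBS-given mice. Lck had 67, 59, 64, 51 and 45 counts in WT, 63, 55, 44, 62 and 29 in PBS-given APP-PS1 and 58, 74, 60, 54 and 90 in treated mice. These are 1.91 ± 0.38, 1.87 ± 0.176 and 2.08 ± 0.239 CPM, and its log2 fold changes in the same comparisons were 0.04 (SE 0.16) and 0.15 (SE 0.15), with adjusted p values of 0.957 and 0.683 in edgeR. Lat was at 0.78 to 1.2 CPM in WT, 0.53 to 0.959 in PBS-given APP-PS1 and 0.634 to 1.08 in treated mice, with a log2 fold change of -0.38 (SE 0.22) in PBS-given APP-PS1 against WT mice (adjusted p of 0.539 in edgeR). None of the 3 signalling genes separated the groups. Zap70 in anti-CD8a replicates 1 and 5, low in the T cell core, was at 4.04 and 3.96 CPM, within 3.65 to 4.18 CPM of its group.

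**Figure D3:**
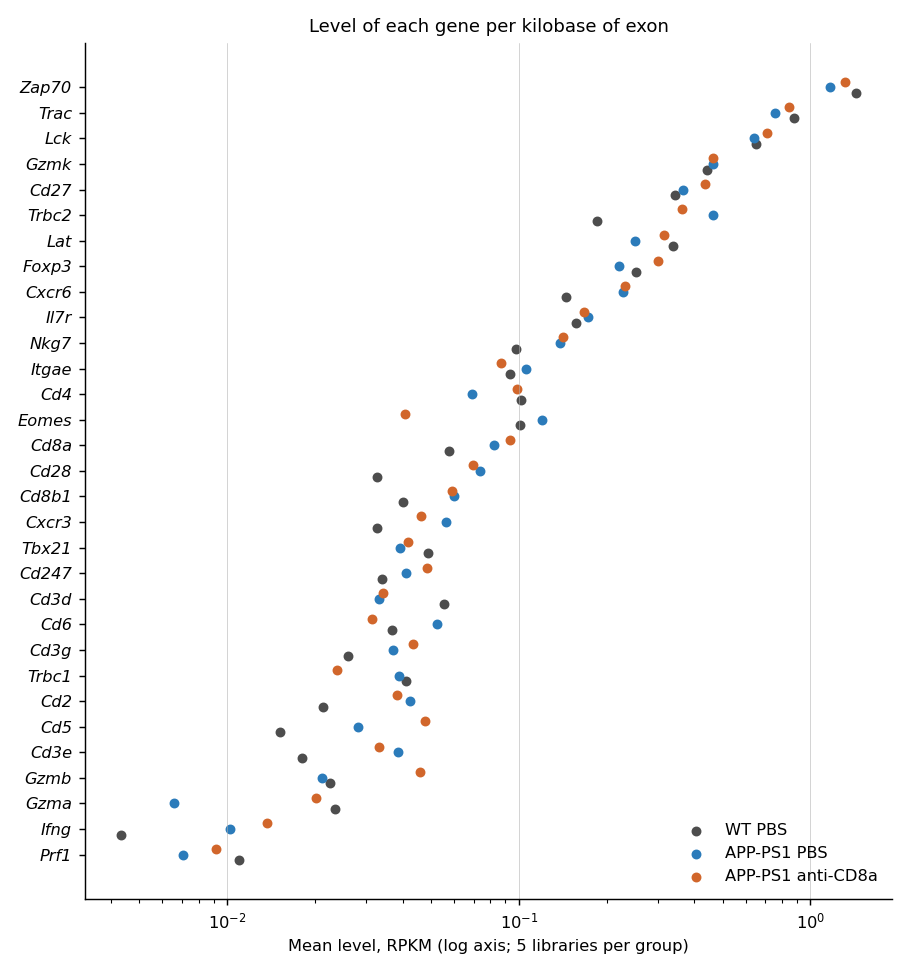
Mean RPKM of each of the 31 genes in each group of 5 libraries (points, log axis), ordered by the mean over all libraries. Zap70, Trac and Lck lead, and the CD3 chains and most granule genes lie below 0.1 RPKM.

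Among the receptors for adhesion and costimulation, Cd28 had the largest log2 fold changes of the 14 tested genes against WT mice. CD28 gives the second signal that a T cell needs besides its receptor. In WT mice Cd28 had 8, 3, 6, 5 and 9 counts, in PBS-given APP-PS1 mice 18, 10, 3, 17 and 12, and in treated mice 4, 15, 29, 10 and 9. PBS-given APP-PS1 libraries lay above the WT range of 0.109 to 0.253 CPM in 4 of 5 cases, with replicate 3 (0.126 CPM) inside it. The level, not adjusted for sex, was 0.451 ± 0.215 against 0.2 ± 0.0608 CPM. The edgeR model, which holds the labelled sex, put the log2 fold change at 1.41 with SE 0.47 (unadjusted p = 0.00786 and adjusted p = 0.239), and over the alternatives the adjusted p ran from 0.125 to 0.707. Against WT, treated mice had 1.26 with SE 0.45 (edgeR, adjusted p = 0.242), and against PBS-given APP-PS1 mice -0.16 (SE 0.40, adjusted p = 0.885). The transgenic groups were set against the same WT libraries, so their values against WT are not independent.

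Cd5, a receptor that dampens signals of the T cell receptor, was below the filter and was chosen for mention after its values were seen. Its treated libraries (0.2, 0.2, 0.236, 0.206 and 0.33 CPM) all lay above the WT libraries (0.0948, 0.0363, 0.116, 0.0424 and 0.0844 CPM). Between treated and WT mice it was the 1 gene of the 31 whose groups did not overlap, against 1.99% of the 33134 genes with a count. In PBS-given APP-PS1 against WT mice and in treated against PBS-given mice 0 of the 31 did so, against 1.83% and 1.17% of those genes. EdgeR without the filter gave Cd5 1.45 on the log2 scale, with SE 0.48 and an adjusted p of 0.203. Cd27, a costimulatory receptor of the TNF receptor family, was at 0.799 ± 0.169, 0.849 ± 0.191 and 1.01 ± 0.303 CPM, and its log2 fold change of treated against WT mice was 0.48 (SE 0.23), with an adjusted p of 0.412 in edgeR. Cd6, a relative of Cd5, had 43, 55 and 40 counts per group. For treated against PBS-given mice edgeR put it at -0.71 on the log2 scale (SE 0.35), with an adjusted p of 0.388. Cd2, an adhesion receptor, had 6, 9 and 11 counts per group.

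Receptors for homing and residence included Cxcr6, which binds the chemokine CXCL16 and marks T cells that stay in tissue. Cxcr6 had 8, 7, 7, 9 and 11 counts in WT, 10, 9, 10, 15 and 12 in PBS-given APP-PS1 and 9, 25, 19, 8 and 11 in treated mice. Its levels, not adjusted for sex, were 0.28 ± 0.0682, 0.437 ± 0.139 and 0.446 ± 0.212 CPM. The edgeR model, which holds the labelled sex, put the log2 fold change at 0.85 with SE 0.29 (adjusted p = 0.263) for PBS-given APP-PS1 against WT mice and 0.88 with SE 0.28 (adjusted p = 0.16) for treated against WT mice. The latter passed the threshold of 0.05 without WT replicate 5 (1.20 with SE 0.29, edgeR's adjusted p = 0.0427), and over all alternatives its adjusted p ran from 0.0427 to 0.52. WT replicate 5 is the only WT library labelled male, so without it the model's sex term rests on APP-PS1 mice. For treated against PBS-given mice Cxcr6 was at 0.03 (SE 0.26) on the log2 scale. Itgae, the integrin CD103 of resident T cells, was at 0.428 ± 0.0514, 0.486 ± 0.109 and 0.398 ± 0.106 CPM, with overlapping groups. Cxcr3, the receptor for CXCL9 and CXCL10, had 9, 13 and 13 counts per group.

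The products by which cytotoxic T cells kill were close to undetected. Gzma had 8 counts over the 15 libraries, Prf1, which encodes perforin, 12, Ifng, which encodes interferon gamma, 6, and Gzmb 20. Gzma was at 0 in 10 libraries, Prf1 in 9 and Ifng in 11, and none of the 3 exceeded 3 counts in any library; a count of 0 allows up to 3 counts. Gzmb, a granzyme that cleaves caspases, had 2, 0, 0, 1 and 2 counts in WT, 0, 1, 0, 2 and 1 in PBS-given APP-PS1 and 1, 2, 2, 1 and 5 in treated mice. Treated mice had 11 Gzmb counts against 4 in PBS-given mice. For this comparison edgeR without the filter estimated 1.08 on the log2 scale (SE 0.86), with an adjusted p of 0.753. Nkg7, a protein of the granule membrane, had 14, 18 and 21 counts per group. Gzmk stood apart from the other granule genes at 0.456 RPKM, with 0.614 ± 0.244, 0.645 ± 0.149 and 0.642 ± 0.0956 CPM in the 3 groups and 0.002 (SE 0.26) on the log2 scale for treated against PBS-given mice.

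Eomes and Tbx21 encode T-box factors of effector T cells and natural killer (NK) cells, and Eomes is also made by progenitors of neurons. Eomes had 46, 2, 1, 3 and 15 counts in WT, 1, 62, 2, 6 and 0 in PBS-given APP-PS1 and 9, 4, 1, 2 and 12 in treated mice. Its high libraries were WT replicate 1 and APP-PS1 PBS replicate 2, each second in Cd8a within its group (0.253 and 0.389 CPM). The latter also had the highest T cell core of its group (2.26 CPM). Treated mice went the other way. Their replicates 5 and 1 had the most Eomes (0.33 and 0.3 CPM) and the least Cd8a (0.0824 and 0.1 CPM). A list of 7 genes of new neurons and progenitors was lowest of its group in WT replicate 1 (58.2 CPM) and APP-PS1 PBS replicate 2 (59.7 CPM). In treated mice this list was highest in replicates 5 and 1 (71.3 and 65.1 CPM). The source of the Eomes counts was not tested. Tbx21 had 2 to 7 counts in each library, with 19, 13 and 17 per group. Of the genes of helper, regulatory and memory cells, Cd4, the co-receptor for MHC class II, was at 0.413 ± 0.173, 0.278 ± 0.0791 and 0.397 ± 0.188 CPM, and Il7r, the receptor for interleukin 7, at 0.73 ± 0.0937, 0.808 ± 0.303 and 0.784 ± 0.151 CPM. Foxp3, the factor of regulatory T cells, was at 1.16 ± 0.212, 1.01 ± 0.364 and 1.37 ± 0.332 CPM, well above Cd3e per length (0.258 against 0.03 RPKM). Of its exon bases 18.6% are shared on the same strand with the noncoding gene Flicr (23 to 51 counts per library) and 18.7% lie opposite exons of other genes, so its counts are uncertain. Against WT mice the log2 fold changes of Cd4, Il7r and Foxp3 carried no adjusted p under 0.05 in edgeR in either transgenic group, nor did treated against PBS-given mice, where Foxp3 had 0.40 (SE 0.24, adjusted p of 0.478).

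**Figure D4:**
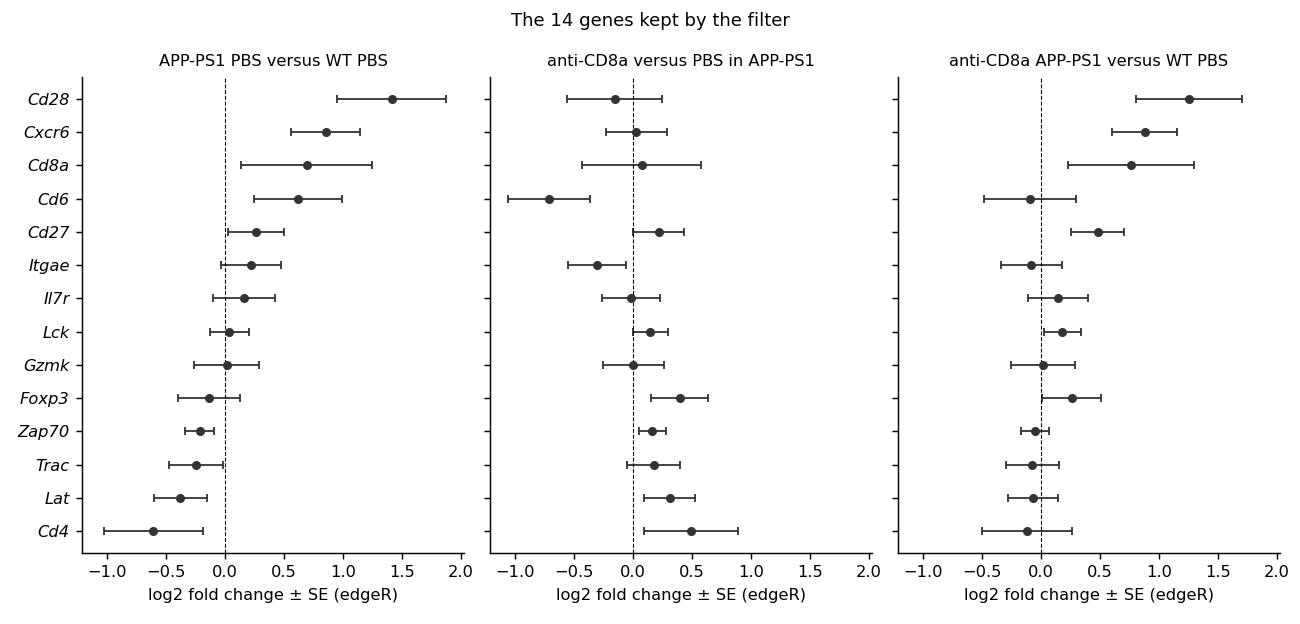
Log2 fold change with its SE in edgeR for the 14 genes kept by the filter, in the 3 comparisons. Cd28 and Cxcr6 lie farthest above 0 in both comparisons with WT mice (1.41 and 0.85, then 1.26 and 0.88), and no gene passed an adjusted p of 0.05.

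None of the 14 tested genes passed an adjusted p of 0.05 in edgeR in any of the 3 comparisons. Among all 18974 genes tested the share that passed was 1.03% for PBS-given APP-PS1 against WT mice, 0.0% for treated against PBS-given APP-PS1 mice and 1.94% for treated APP-PS1 against WT mice. At an unadjusted p under 0.05 the counts were 2 of 14 (Cd28 and Cxcr6), 0 of 14 and 3 of 14 (Cxcr6, Cd28 and Cd27), beside 11.5%, 13.3% and 12.1% of all genes. DESeq2 passed 0 of the 16, 3 and 17 genes to which it gave an adjusted p, beside 1.78%, 0.831% and 2.53% of all genes. Limma-voom passed 0 of 14 in each comparison, beside 0.954%, 0.0% and 1.74%. Without a filter all 31 genes could be fitted and 0 passed in edgeR, where 0.809%, 0.0392% and 1.25% of 33134 genes did. The median log2 fold change of the 31 was then 0.22, 0.04 and 0.25 in the 3 comparisons, beside -0.004, 0.004 and -0.001 over all genes.

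Some other genes of the receptor's pathway rose in APP-PS1 mice, and the 3 named first are also used by microglia. Of a list of 28 further pathway genes 22 were tested, and 3 rose in PBS-given APP-PS1 against WT mice while none fell. In that comparison 1.03% of all genes passed in edgeR. Ptprc, which encodes the leukocyte phosphatase CD45, was at 17.9 ± 2.21 against 8.19 ± 1.03 CPM (1.26 on the log2 scale, SE 0.14, edgeR's adjusted p = 0.000193). The exchange factor gene Vav1 (0.69, SE 0.14) and the adaptor gene Lcp2 (0.65, SE 0.13) also passed. In treated against WT mice Ptprc (1.25, SE 0.14, adjusted p = 0.000127 in edgeR), Vav1 (0.91, SE 0.14) and Lcp2 (0.55, SE 0.13) passed as well. In treated against PBS-given APP-PS1 mice 0 of the 22 passed in edgeR, with 1 at an unadjusted p under 0.05, beside 0.0% and 13.3% of all genes.

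Some ligands that draw or hold T cells rose against WT mice as well. Of 17 genes in this list 13 were tested and 3 rose in PBS-given APP-PS1 mice, beside 1.03% of all genes that passed in edgeR. They were the chemokine genes Ccl3 (log2 fold change 2.95) and Ccl4 (2.50) and Cd86 (0.92), which encodes a ligand of CD28. In treated against WT mice 4 rose, these and Cxcl10 (1.94, SE 0.45, adjusted p = 0.0333 in edgeR), a ligand of CXCR3, beside 1.94% of all genes. Cxcl16, the ligand of CXCR6, was at 2.35 ± 0.22 in PBS-given APP-PS1 against 1.58 ± 0.459 CPM in WT mice (0.50, SE 0.18, adjusted p = 0.306 in edgeR). Between treated and PBS-given mice 0 of the 13 passed in edgeR and 2 had an unadjusted p under 0.05, beside 0.0% and 13.3% of all genes. These were Cxcl10, at 2.69 ± 1.68 against 1.14 ± 0.326 CPM, and Cdh1, which encodes the ligand of CD103, at 0.649 ± 0.791 against 2.6 ± 1.61 CPM. The sums for meningeal and choroid plexus cells in these groups follow.

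Markers of other cells were summed in the same libraries. The 8 microglial genes summed to 386 to 454 CPM in WT, 556 to 705 in PBS-given APP-PS1 and 544 to 957 in treated mice. In PBS-given APP-PS1 against WT mice 5 of the 8 rose in edgeR and none fell, beside 1.03% of all genes that passed. Anti-CD8a replicate 3, with the most Cd8a and Cd28, also had the highest microglial sum (957 CPM), whereas replicates 2 and 4, high in the T cell core as well, had 654 and 641 CPM. A list of 7 NK cell genes summed to 38, 67 and 64 counts, or 0.238 ± 0.148, 0.52 ± 0.114 and 0.402 ± 0.146 CPM, with 0 of 7 abundant enough to test. Genes of red blood cells were at 8.47 to 15.1 CPM in WT, 11.4 to 28.4 in PBS-given APP-PS1 and 8.87 to 17.8 in treated mice, and 0 of 5 passed in edgeR in any comparison. In treated against PBS-given mice all 7 genes of meningeal fibroblasts had lower estimates, with sums of 156 ± 35 against 228 ± 42.4 CPM, as had all 9 of the choroid plexus, with medians over libraries of 97.3 against 113 CPM and means of 480 against 1350 CPM. In edgeR 0 of the 7 and 0 of the 9 passed, beside 0.0% of all genes. At an unadjusted p under 0.05 there were 2 and 0, beside 13.3% of all genes. The part of these cells in the values of the T cell genes was not tested.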

How the data were processed

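Poly(A) RNA of 15 mouse brain samples, each from 1 mouse by the labels, was sequenced with a stranded kit, per the labels' protocols. The authors deposited raw read counts per Ensembl gene as 1 table. FastQC, Bowtie2 2.2.2, HTSeq 0.11.2 and DESeq2 and the build GRCm38 are named in the submitters' processing notes. Bowtie2 used alone makes no spliced alignments, so reads over exon junctions can then be lost. The notes name no other aligner, and whether such reads were lost was not tested. No source used here states the annotation release or strand setting. The 5 HTSeq summary lines stayed out of all sums. They held 19.97 to 25.85% of a library's reads as lacking a feature, 1.64 to 1.79% as ambiguous and 2.70 to 2.92% as aligned more than once. Depth is given with the results.

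Symbols (for 45143 identifiers), exon lengths, overlaps and the Trbc transcripts come from GENCODE M21 on GRCm38. CPM was computed here with TMM scaling, and RPKM as CPM per kilobase of merged exons. The main test was edgeR's quasi-likelihood test (edgeR 4.0.16, R 4.3.3, two-sided) on the 18974 genes that filterByExpr kept. One model held the 3 groups and the sex given in the labels, and p values were adjusted over all genes tested (Benjamini-Hochberg, threshold 0.05). SEs derive from the F statistic. The code was tested on simulated counts. Alternatives were DESeq2 1.42.0, limma-voom (limma 3.58.1), other filters, scaling and covariates, and libraries left out. Sums over genes carry no test. The rule for named genes was to account for all 31, with full statistics for those kept by the filter and for Cd8b1, Cd3e, Trbc2 and Gzmb, and to name up to 4 genes of smallest p in each of 2 further lists. The text gives full values for those the results turn on and ranges or counts for the rest. The genes, lists and alternatives were chosen with earlier results of these data known. None of the 15 libraries analysed here came from mice given an isotype antibody. Some results of the further pathway list are not reported here.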

Additional observations from a re-analysis of the deposited data

Results flagged for a closer look

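In each group of 5 libraries the highest and the lowest value were compared with the rest by Dixon's ratio (limit 0.71), over 108 groups for the 31 genes and 5 sums, and 14 stood apart. Chance gives about 1 in 20 for continuous values, and its rate for counts this low was not estimated. Eomes was at 1.45 CPM in WT replicate 1 (others 0.0289 to 0.422) and at 2.19 CPM in APP-PS1 PBS replicate 2 (others 0 to 0.183). Cd5 was at 0.264 CPM in APP-PS1 PBS replicate 1 and at 0.33 CPM in anti-CD8a replicate 5. Cd247 stood out in WT replicate 2 (0.363 CPM), Cd2 in WT replicate 1 (0.158 CPM) and APP-PS1 PBS replicate 5 (0.166 CPM), and Tbx21 in anti-CD8a replicate 2 (0.2 CPM). Genes with counts in a single library of the group were Gzma in APP-PS1 PBS replicate 1 (0.0331 CPM) and anti-CD8a replicate 3 (0.101 CPM), Prf1 in APP-PS1 PBS replicate 4 (0.0915 CPM), and Ifng in WT replicate 5 (0.0281 CPM) and APP-PS1 PBS replicate 1 (0.0661 CPM). The summed NK cell genes were at 0.718 CPM in APP-PS1 PBS replicate 5 (others 0.43 to 0.502). Apart from Eomes, these values rest on 1 to 13 counts each.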

How the results depend on the processing

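No paired analysis was possible because the labels give no replicate numbers that groups share. Changing the processing gave 0 called genes in every alternative except 1: without WT replicate 5, 1 gene (Cxcr6) passed in edgeR for treated against WT mice, so that leaving out each library gave 0 to 0, 0 to 0 and 0 to 1 called genes in the 3 comparisons. WT replicate 5 is the only WT library labelled male. All values here are log2 fold changes or log2 ratios, and the cause of the shifts was not tested. The T cell core in PBS-given APP-PS1 against WT mice moved from 0.25 to 0.65 without Trac. Unscaled, the sum of all 31 genes moved to -0.19 in that comparison and to 0.35 for treated against PBS-given mice, since totals differ. Leaving out each library, the core ran from 0.15 to 0.34, -0.11 to 0.18 and 0.13 to 0.43, and the sum of all 31 from -0.04 to 0.05, 0.04 to 0.14 and 0.04 to 0.15. Of the single-gene values, 723 kept their sign and, where an adjusted p was given, their call, 66 changed sign and 1 gained a call. DESeq2 gave no adjusted p for some genes, and there only the sign was compared.

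Sign changes for PBS-given APP-PS1 against WT mice were, without the 5 Ttr-rich libraries, Lck -0.18, Il7r -0.309, Cd6 -0.071, Foxp3 0.543, Gzmk -0.082 and Trac 0.0, and, without the sex covariate, Lck -0.012. For treated against PBS-given mice they were, with limma-voom, Il7r 0.07 and Cd8a -0.132, without the Ttr-rich libraries, Il7r 0.349 and Cd28 0.005, and, with sex read from the data, Cd28 0.082 and Gzmk -0.019. Gzmk, near 0, also had -0.004 without a filter, -0.012 with a 10-count filter, -0.008 in DESeq2, -0.006 with RLE scaling and -0.003 with both groups alone. For treated against WT mice they were, without the Ttr-rich libraries, Lck -0.051, Lat 0.008 and Trac 0.204, and, with both groups alone, Gzmk -0.06.

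Leaving out each library changed signs within these ranges. For PBS-given APP-PS1 against WT mice they were -0.184 to 0.131 for Lck, -0.34 to 0.098 for Foxp3 and -0.143 to 0.203 for Gzmk. For treated against PBS-given mice they were -0.295 to 0.326 for Cd8a, -0.571 to 0.109 for Cd28, -0.108 to 0.105 for Cxcr6, -0.215 to 0.171 for Il7r and -0.112 to 0.122 for Gzmk. For treated against WT mice they were -0.035 to 0.224 for Lck, -0.027 to 0.212 for Il7r, -0.184 to 0.168 for Itgae, -0.329 to 0.046 for Cd4, -0.574 to 0.147 for Cd6, -0.103 to 0.001 for Zap70, -0.172 to 0.067 for Lat, -0.124 to 0.208 for Gzmk and -0.207 to 0.159 for Trac. At this depth most of the 31 genes have too few counts for small differences to be detectable.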
